A study of Mus musculus with 12 samples.

Results

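The vomeronasal and olfactory receptor genes among the genes that differed between tdTomato− and tdTomato+ group 2 innate lymphoid cells (ILC2s) of the mouse lung are described here. The members were chosen from the authors' 2 tables of genes, one of genes higher and one of genes lower in tdTomato+ ILC2s, as every gene whose symbol starts with Vmn, Olfr or Or followed by a digit. Of the 3439 genes of both tables, 61 were members, and they comprised 17 Vmn1r, 36 Vmn2r and 8 olfactory receptor genes. All 61 stood in the table of higher genes and 0 in the table of lower genes. Of all listed genes, 533 stood in the table of higher genes (15.5%). That contrast selected the members, so the direction is a description and was not tested. Their 61 genes made up 11.4% of the 533 higher genes.

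The cells came from lungs of male mice of the genotype TIGIT-Cre-ERT2:Rosa26-LSL-tdTomato that had received papain and tamoxifen. Papain is a protease used to induce airway allergy. In these mice the Tigit locus drives a Cre recombinase that acts only after tamoxifen, so the red fluorescent protein tdTomato marks cells in which Tigit was active while tamoxifen was present, and cells that later lost TIGIT keep the mark. Both populations were sorted from the same genotype and treatment, with 4 RNA-seq libraries of tdTomato− ILC2s and 4 of tdTomato+ ILC2s. A further 2 ATAC-seq libraries of each population were not analysed here. The tables hold no value of a single library, so the depth of each library is unknown and no spread between replicates could be given. The level of each gene was the authors' average log2 CPM (CPM is the count of a gene scaled to a fixed library total), taken over the libraries of their fit and thus over both populations together.

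Vomeronasal receptors are G protein-coupled receptors that detect pheromones and other social cues in sensory neurons of the vomeronasal organ. Receptors of the Vmn1r class have a short extracellular end and are found in the apical layer of that epithelium, where they signal through the G protein subunit encoded by Gnai2. Receptors of the Vmn2r class carry a large extracellular ligand-binding domain and are found in the basal layer, where they signal through the subunit encoded by Gnao1. Olfactory receptors detect odorants in neurons of the main olfactory epithelium, and a mature neuron typically expresses a single receptor gene. The genes of all 3 classes lie in large tandem arrays of similar copies, so short reads of one copy can match another.

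Coding stretches of the closest members show how similar the most alike copies were. Most pairs of members were far less alike, as given below. Vmn2r6, Vmn2r7 and Vmn2r4 are broadly expressed Vmn2r receptors of the vomeronasal organ, and their genes are neighbours on chromosome 3. The stretches below, each of 150 bases within 1 coding exon on the minus strand of GRCm38, lie at chr3:64556011-64556160, chr3:64715764-64715913 and chr3:64406158-64406307. Capitals mark bases that differ from Vmn2r6, and there were 5 of them in Vmn2r7 and 20 in Vmn2r4.
Vmn2r6: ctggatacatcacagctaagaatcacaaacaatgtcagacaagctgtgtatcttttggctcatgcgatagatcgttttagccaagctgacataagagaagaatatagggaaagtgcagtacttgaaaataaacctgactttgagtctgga
Vmn2r7: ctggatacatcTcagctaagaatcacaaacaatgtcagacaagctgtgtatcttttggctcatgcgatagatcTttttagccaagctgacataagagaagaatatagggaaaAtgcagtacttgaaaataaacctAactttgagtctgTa
Vmn2r4: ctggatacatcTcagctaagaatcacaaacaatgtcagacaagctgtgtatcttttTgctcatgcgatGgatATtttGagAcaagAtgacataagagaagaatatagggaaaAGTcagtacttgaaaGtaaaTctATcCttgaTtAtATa

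The proteins of Vmn2r6 and Vmn2r7 were 97.8% identical, those of Vmn2r4 and Vmn2r7 95.5% and those of Vmn2r4 and Vmn2r6 94.96%. These 3 pairs were the only ones among the members with at least 90% protein identity. The longest run of coding sequence without a difference was 305 bases between Vmn2r6 and Vmn2r7, 294 bases between Vmn2r7 and Vmn2r4 and 172 bases between Vmn2r6 and Vmn2r4. A read that lies within such a run cannot be assigned to either gene by its sequence.

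The closest pair of Vmn1r members was Vmn1r18 and Vmn1r28, which lie in the same array on chromosome 6 and gave proteins with 89.97% identity, just under that limit. Their stretches lie at chr6:57389884-57390033 on the minus strand and chr6:58265708-58265857 on the plus strand, and Vmn1r28 differed from Vmn1r18 at the 19 bases in capitals. Their longest shared coding run was 55 bases.
Vmn1r18: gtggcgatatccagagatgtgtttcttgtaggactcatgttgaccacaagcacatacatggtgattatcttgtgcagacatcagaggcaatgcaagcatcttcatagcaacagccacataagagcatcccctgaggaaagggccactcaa
Vmn1r28: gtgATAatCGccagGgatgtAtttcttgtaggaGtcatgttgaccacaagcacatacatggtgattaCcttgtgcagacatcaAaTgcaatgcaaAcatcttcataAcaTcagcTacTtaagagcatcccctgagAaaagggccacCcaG

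No olfactory member had another olfactory member as its nearest protein of the family. The olfactory member closest to any gene of its family was Olfr130, and the olfactory gene nearest to it, Olfr117, was in neither table. The proteins of these receptors were 97.5% identical. Their stretches lie at chr17:38067824-38067973 on the plus strand and chr17:37659531-37659680 on the minus strand, and Olfr117 differed from Olfr130 at the 12 bases in capitals. The longest shared coding run of the pair was 125 bases.
Olfr130: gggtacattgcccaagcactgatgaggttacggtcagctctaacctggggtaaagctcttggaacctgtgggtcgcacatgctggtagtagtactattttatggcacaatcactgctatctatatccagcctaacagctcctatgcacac
Olfr117: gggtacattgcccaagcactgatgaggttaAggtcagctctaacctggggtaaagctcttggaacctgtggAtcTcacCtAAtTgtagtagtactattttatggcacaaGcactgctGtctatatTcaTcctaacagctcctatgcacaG

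The Vmn2r class held the most members and the highest level. Vmn2r76 (ENSMUSG00000091239) had an average log2 CPM of 6.65, or 101 CPM, and was followed by Vmn2r53 at 6.19, Vmn2r120 at 6.11, Vmn2r3 at 6.08 and Vmn2r114 at 6.04. These 5 genes were the only members with an average log2 CPM of at least 6. The next 5 Vmn2r genes were Vmn2r102 at 5.99, Vmn2r70 at 5.94, Vmn2r59 at 5.92, Vmn2r20 at 5.80 and Vmn2r69 at 5.76. The 36 Vmn2r genes had a median of 5.55, with quartiles of 5.31 and 5.77, and their CPM differed by 3.14 times between the highest and the lowest. The lowest were Vmn2r4 at 5.10, Vmn2r110 at 5.01 and Vmn2r89 at 5.00. Vmn2r74 had 5.51, and the near-identical Vmn2r6 and Vmn2r7 had 5.33 and 5.22. Vmn2r89 is typed as a pseudogene in the tables and as protein-coding in GENCODE M21, where its protein has 507 residues against a median of 855 in its class.

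The 17 Vmn1r genes had a median average log2 CPM of 5.31, with quartiles of 5.22 and 5.65. Vmn1r55 at 5.97 and Vmn1r18 at 5.94 were the highest, followed by Vmn1r81 at 5.75, Vmn1r28 at 5.69, Vmn1r77 at 5.65 and Vmn1r229 at 5.64. Below these 6 genes came Vmn1r46 at 5.48 and Vmn1r68 at 5.43. The other 9 lay closer together. Vmn1r218 had 5.31, the pseudogene Vmn1r-ps140 had 5.28, Vmn1r230 had 5.26, Vmn1r80 had 5.25 and Vmn1r173 had 5.22. Vmn1r78 and Vmn1r61 both had 5.16, and so did Vmn1r88, while Vmn1r43 was the lowest at 5.06. The pseudogene thus stood in the middle of the class, between genes that encode receptors.

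The 8 olfactory receptor genes were the fewest and had the lowest median, 5.12. Olfr1307 stood apart at 5.89, or 59.2 CPM, and the other 7 fell between 5.01 and 5.25. In order these were Olfr1183 at 5.25, Olfr539 at 5.16, Olfr827 and Olfr130 both at 5.12, Olfr1459 at 5.07, Olfr77 at 5.06 and Olfr728 at 5.01. With no value per library, neighbours in these orders cannot be said to differ. The median of all 61 members was 5.46, beside 5.58 for the other genes of the table of higher genes and 6.39 for the table of lower genes. The tables hold no gene under an average log2 CPM of 5.00, or 32.02 CPM. Vmn2r89, Vmn2r110 and Olfr728 were the members nearest to that limit, and genes under it are not analysed here. Together the members had 2836 CPM, or 0.284% of all counts on that scale.

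**Figure D1:**
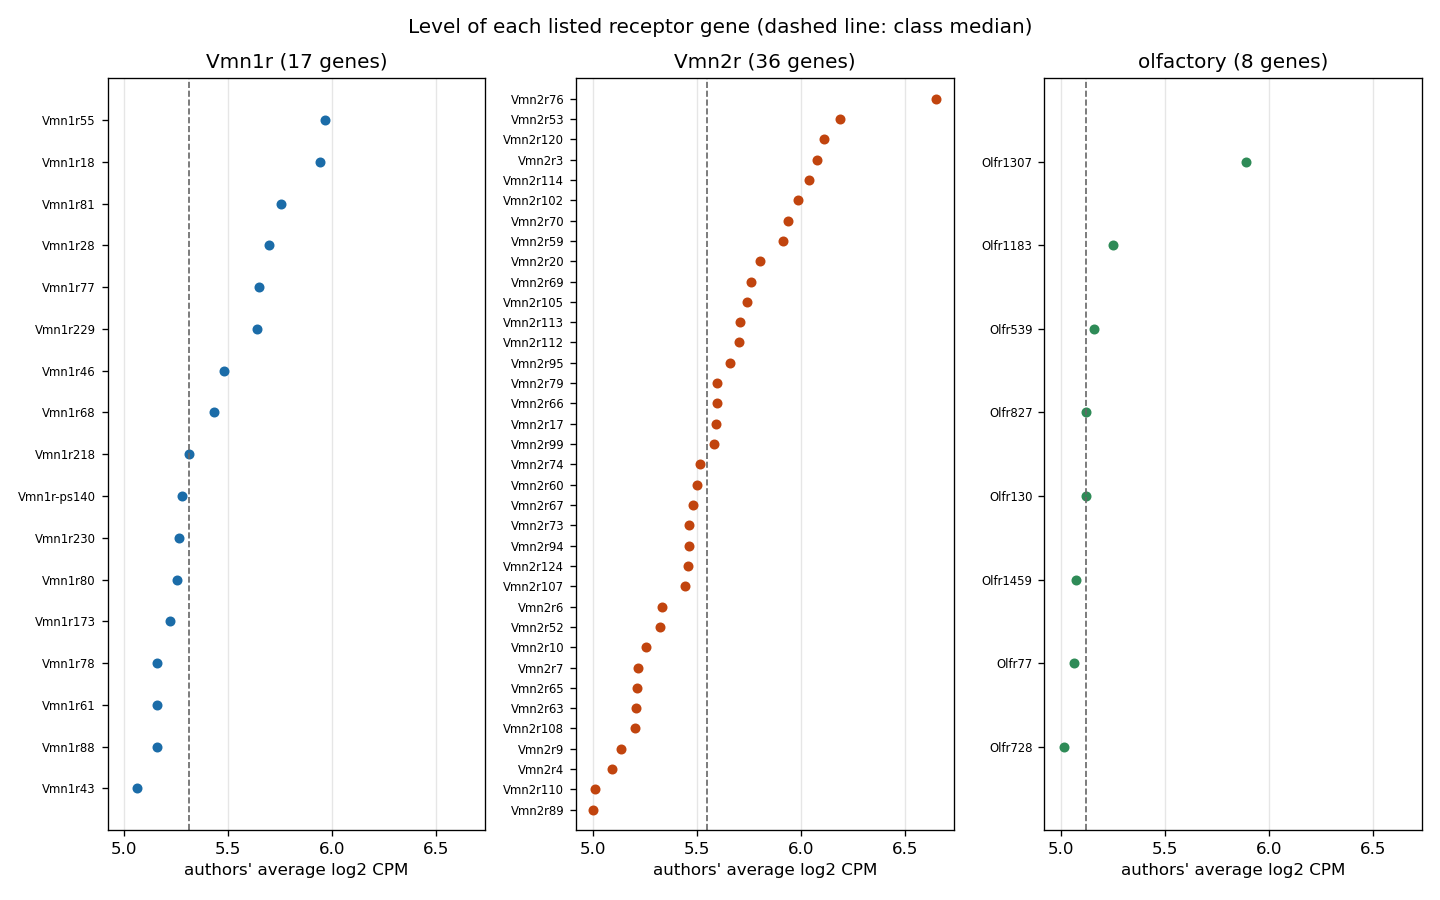
Average log2 CPM (x axis, the authors' average over libraries, no error available) of each of the 17 Vmn1r, 36 Vmn2r and 8 olfactory receptor genes (y axis, sorted by level), with the class median as a dashed line. Most genes lie between 5.0 and 6.0, and Vmn2r76 at 6.65 and Olfr1307 at 5.89 stand apart at the top of their classes.

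Exonic length, the number of bases covered by any annotated exon of a gene, was large in every class. The median was 10.4 kb for Vmn1r, 12.1 kb for Vmn2r and 8.70 kb for olfactory members, beside 10.5 kb for the other higher genes and 5.19 kb for the lower genes. The shortest members were Olfr130 at 5.99 kb and Olfr728 at 7.09 kb, and the other 59 all exceeded 8 kb. The longest was Vmn2r76, at 26.5 kb. The coding part is a small share of these exons, with a median of 8.32% for Vmn1r, 20.96% for Vmn2r and 10.9% for olfactory members, against 37.8% in the other higher genes and 33.9% in the lower genes. The GC content of the longest transcript had a median of 38.0% over the members, beside 45.2% in the other higher genes and 49.0% in the lower genes.

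Across the members the level followed the exonic length. Spearman's rho between average log2 CPM and exonic length was 0.77 over the 61 members, 0.83 over the 36 Vmn2r genes and 0.58 over the 17 Vmn1r genes. The points are genes of the same libraries and not independent replicates, and the lower limit of 32.02 CPM keeps low genes out at every length. The rho of the level with GC content was -0.06 and that with the unique share of the exons, given below, was 0.02. The 25 members with exons under 10 kb had a median of 37.0 CPM, the 25 of 10 to 15 kb had 45.3 CPM, and the 11 over 15 kb had 62.5 CPM.

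Per kb of exon the members were close to each other. The average CPM per kb had a median of 3.91 for Vmn1r, 3.87 for Vmn2r and 3.95 for olfactory members, and 54 of the 61 lay between 3 and 5. The members under 3 were Vmn1r43 at 2.59, Vmn2r113 at 2.72 and Vmn2r124 at 2.96. Those over 5 were Vmn1r77 at 6.04, Olfr130 at 5.80, Vmn2r105 at 5.38 and Vmn2r99 at 5.11. Vmn2r76, which had the highest level of all, had 3.80 CPM per kb, and the pseudogene Vmn1r-ps140 had 3.89. Over all members the highest value was 2.33 times the lowest. The medians were 4.70 CPM per kb for the other higher genes and 15.4 for the lower genes. Of the other higher genes, 367 of 471 (77.9%) had at most the 6.04 CPM per kb of the highest member, and of the lower genes 32 of 2905 (1.10%) did. The lowest CPM of any listed gene, 32.02, keeps genes with short exons above that value. Median exonic length was 5.19 kb in the lower genes and 10.5 kb in the other higher genes. Part of this contrast, and of that between the medians, is thus set by length and the limit. At the members' median of 3.89 CPM per kb, the limit of 32.02 CPM is reached at an exonic length of 8.23 kb. Shorter genes, such as Olfr130 at 5.99 kb and Olfr728 at 7.09 kb, could be listed only above that median. The closeness of the members per kb is thus in part set by the limit.

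**Figure D2:**
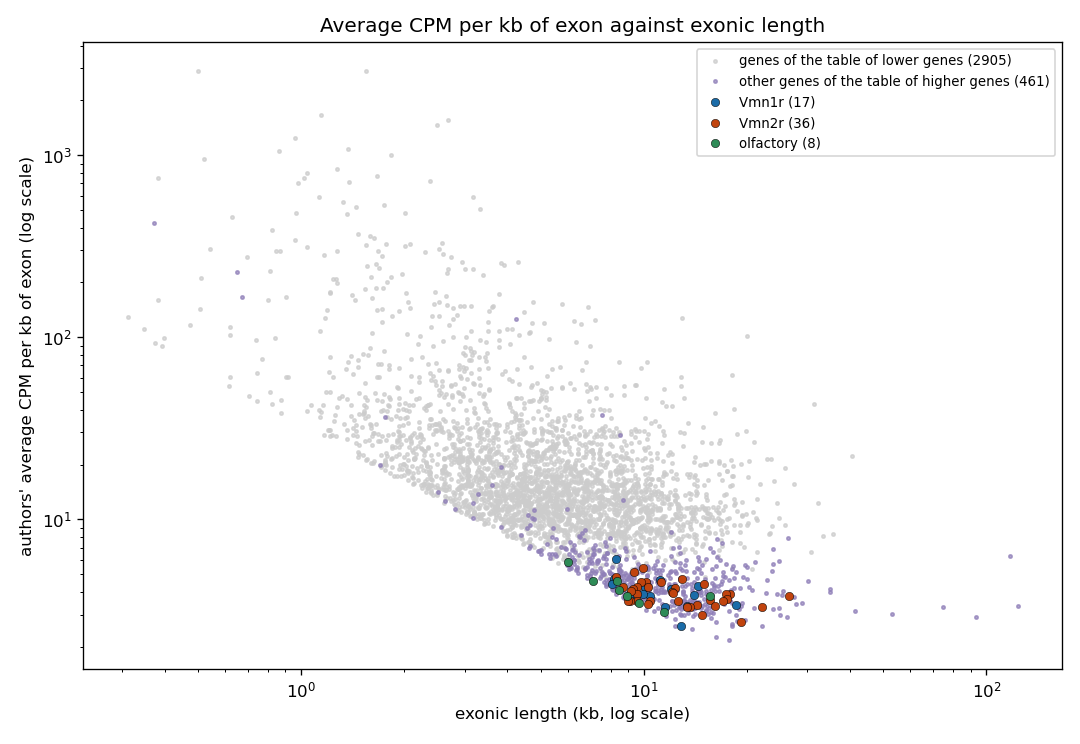
Average CPM per kb of exon (y axis, log scale) against exonic length in kb (x axis, log scale), 1 point per gene, for the receptor genes, the other genes of the table of higher genes (10 satellite repeat rows left out) and the genes of the table of lower genes. The straight lower edge is the tables' limit of 32.02 CPM, which keeps genes with short exons from low values. The receptor genes lie between 2.59 and 6.04 CPM per kb, among the other higher genes and below most of the lower genes.

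Most of the receptor family was in neither table. GENCODE M21 annotates 1468 protein-coding genes of the 3 classes, of which 60 were listed (4.09%). The share was 16 of 210 for Vmn1r (7.62%), 36 of 123 for Vmn2r (29.3%) and 8 of 1135 for olfactory genes (0.705%). Of the protein-coding genes outside these families, 2.17% stood in the table of higher genes and 16.3% in either table. Among 507 family genes of other types, 1 was listed, the pseudogene Vmn1r-ps140. A gene in neither table may be under the level limit or may not have passed the authors' comparison, and these cannot be told apart.

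Nearly all listed genes were among the long ones of their class. A limit of 8 kb was set after the values were seen, just under the shortest listed Vmn1r gene (8.10 kb) and Vmn2r gene (8.29 kb), so the absence of listed genes of these classes below it follows from that choice. Of the Vmn1r genes with exons over 8 kb, 16 of 28 were listed (57.1%), and of those up to 8 kb 0 of 182. Of the Vmn2r genes over 8 kb, 36 of 49 were listed (73.5%), and of those up to 8 kb 0 of 74. The olfactory genes had 6 of 17 listed over 8 kb (35.3%) and 2 of 1118 up to 8 kb (0.179%), these 2 being Olfr130 and Olfr728. In all, 58 of 94 family genes over 8 kb were listed (61.7%), with 22 of 47 between 8 and 10 kb and 36 of 47 over 10 kb. Median exonic length was 2.91 kb for the Vmn1r genes that were not listed, 4.81 kb for such Vmn2r genes and 2.98 kb for such olfactory genes. For comparison, of the 2751 protein-coding genes over 8 kb outside these families, 327 were listed as higher (11.9%) and 709 as lower (25.8%). Of the 17809 up to 8 kb, 120 were listed as higher (0.674%) and 2193 as lower (12.3%). Membership in the table chose the genes, so none of these shares was tested, and the part of length in them was not tested.

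**Figure D3:**
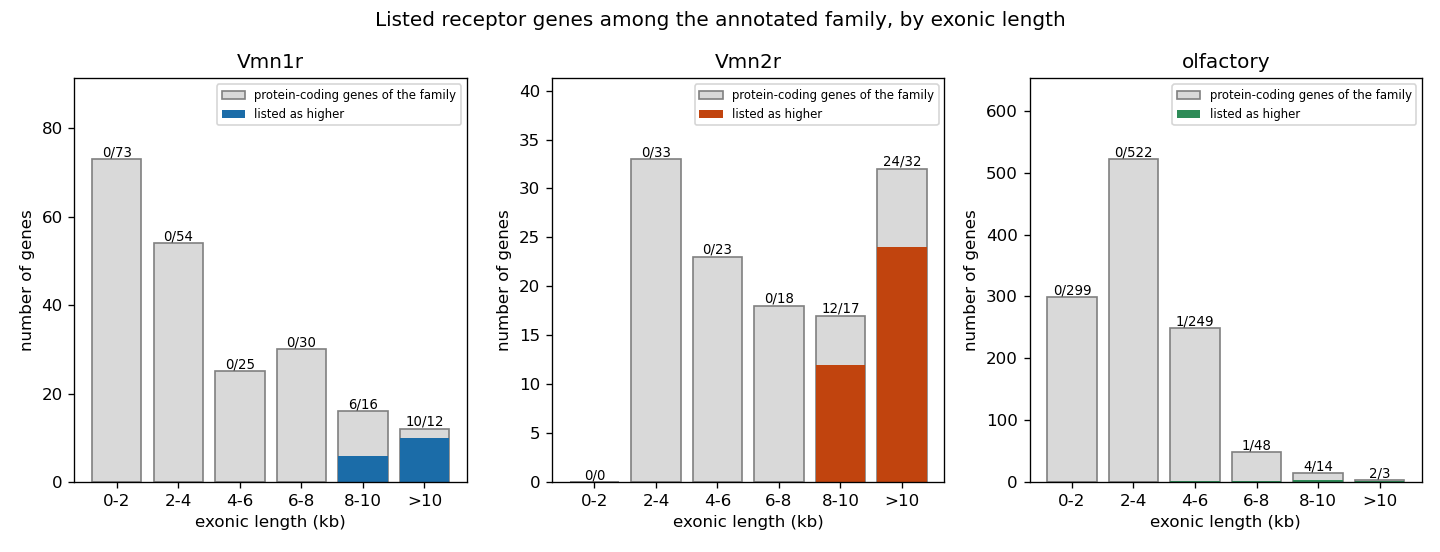
Number of protein-coding genes of each class (y axis) by exonic length in kb (x axis), with all annotated genes in grey and those listed as higher in colour. Numbers above the bars are listed over annotated genes. The Vmn1r and Vmn2r genes listed all have exons over 8 kb.

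There were 36 long family genes that were not listed, 12 of Vmn1r, 13 of Vmn2r and 11 of the olfactory class. Their exons were shorter at the median, with 9.04 kb against 11.2 kb in the 58 that were listed, but the ranges overlapped. Long examples were Vmn2r23 at 17.7 kb, Vmn2r97 at 14.8 kb and Vmn2r115 at 14.1 kb, so length alone did not separate the groups. The share of 100-base exon windows that occur once in the genome had a median of 95.9% in those not listed and 98.3% in those listed. The olfactory class had the opposite order, with 99.3% in the 11 not listed and 95.8% in the 6 listed. The lowest in the genes not listed were 32.5% in Vmn2r30 and 49.0% in Vmn2r31, and the lowest in the listed genes was 66.9%.

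The vomeronasal members lay in groups within their arrays. With neighbours of the same class joined up to a distance of 1 Mb, 45 members fell into 11 clusters, 31 Vmn2r genes in 6 and 14 Vmn1r genes in 5, and 16 members stood alone. The members were spread over 11 chromosomes, with 24 on chromosome 7 and 17 on chromosome 17. All 8 olfactory members stood alone, on chromosomes 2, 7, 9, 10, 14, 17 and 19, and Olfr1183 and Olfr1307 shared chromosome 2 but lay in different arrays.

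The 2 largest clusters held 9 Vmn2r genes each. The one at chr7:84935565-87044941 contained Vmn2r65, Vmn2r66, Vmn2r67, Vmn2r69, Vmn2r70, Vmn2r73, Vmn2r74, Vmn2r76 and Vmn2r79. Of the 15 protein-coding Vmn2r genes in its span, 9 had exons over 8 kb and these 9 were the ones listed. Their average log2 CPM ran from 5.21 to 6.65 and their CPM per kb from 3.36 to 4.73. The one at chr17:18049424-20596423 contained Vmn2r124, Vmn2r94, Vmn2r95, Vmn2r99, Vmn2r102, Vmn2r105, Vmn2r107, Vmn2r108 and Vmn2r110. It spans 21 protein-coding Vmn2r genes, 12 of them over 8 kb. The long ones left unlisted were Vmn2r93, Vmn2r97 and Vmn2r104.

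The other Vmn2r clusters were smaller. At chr3:64257215-64844765 all 4 genes over 8 kb of 5 protein-coding Vmn2r genes were listed (Vmn2r3, Vmn2r4, Vmn2r6 and Vmn2r7). Vmn2r3 had a level of 6.08 there while the other 3 had 5.10 to 5.33, and per kb of exon all 4 lay between 3.58 and 4.23 CPM. Vmn2r112, Vmn2r113 and Vmn2r114 lay at chr17:22600951-23312537, Vmn2r59, Vmn2r60 and Vmn2r63 at chr7:42011284-42933822, and Vmn2r9, Vmn2r10 and Vmn2r17 at chr5:108835273-109458459. The largest Vmn1r cluster, at chr7:12036752-13185864, held Vmn1r77, Vmn1r78, Vmn1r80, Vmn1r81 and Vmn1r88, which were the 5 over 8 kb of 12 protein-coding Vmn1r genes in the span. Vmn1r-ps140, Vmn1r229 and Vmn1r230 formed a cluster of 3 at chr17:20183958-20852857. The remaining clusters were the pairs Vmn1r18 and Vmn1r28 at chr6:57376660-58275639, Vmn1r43 and Vmn1r46 at chr6:89858934-89986721, and Vmn1r55 and Vmn1r61 at chr7:5129291-5613295. Over all 11 clusters, 49 protein-coding genes of the class had exons over 8 kb, and 44 of them were listed (89.8%). Each span ran from the first to the last listed gene, which keeps unlisted genes at its ends out. With 1 Mb added at each end, the count was 44 of 54 (81.5%), and the 5 long genes added were Vmn2r8, Vmn2r115, Vmn1r6, Vmn1r76 and Vmn1r234. Coordinates are those of GRCm38.

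**Figure D4:**
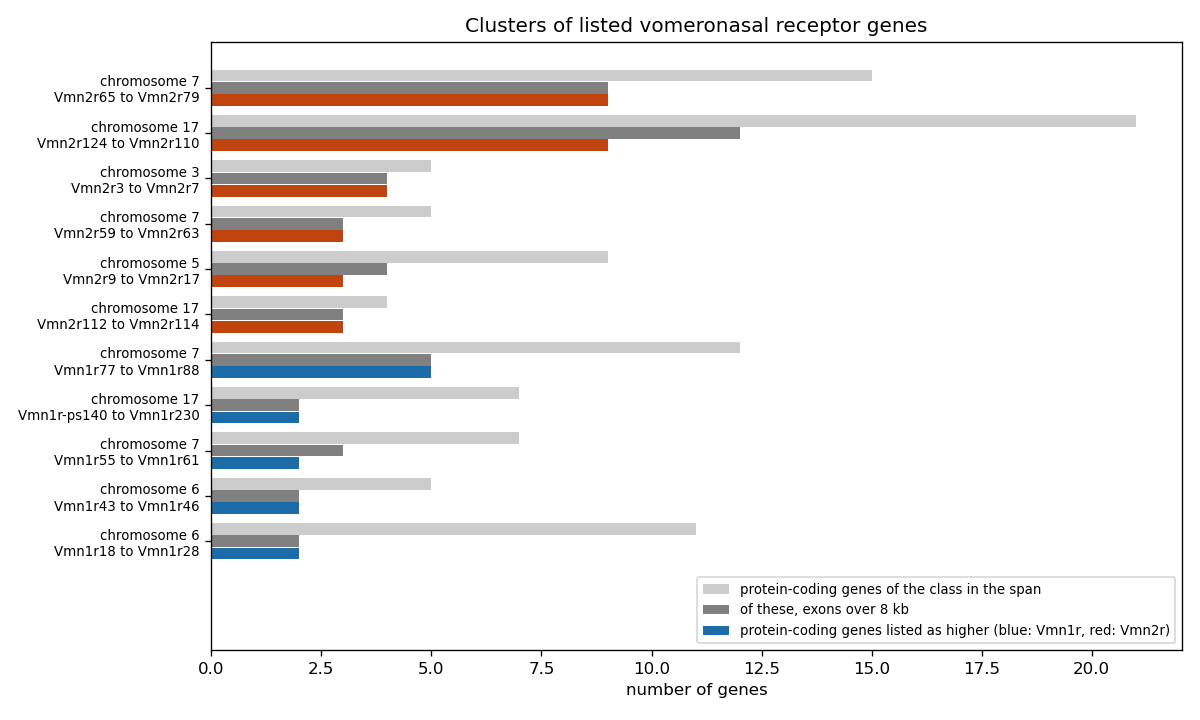
Number of genes (x axis) in each of the 11 clusters (y axis, named by chromosome and by first and last member): protein-coding genes of the same class in the span in light grey, those with exons over 8 kb in dark grey and protein-coding genes listed as higher in blue (Vmn1r) or red (Vmn2r). Spans end at listed genes, and within them every gene over 8 kb was listed in 8 of the 11 clusters.

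Between members the proteins were mostly distant. Median identity was 30.3% over 120 pairs of Vmn1r, 46.8% over 630 pairs of Vmn2r and 39.8% over 28 pairs of olfactory members. Against the whole annotated family, 20 of 60 members with a protein had a nearest relative with at least 90% identity, and the nearest relative was itself listed for 12 of the 60. Vmn2r20 had the closest, the unlisted Vmn2r21 with 99.2%. Vmn1r173 and Vmn1r172 were 95.2% identical, and only Vmn1r173 was listed. For Olfr1307 the nearest was the unlisted Olfr1306 with 95.5%.

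Over whole exons most members had few copies of their sequence elsewhere. The share of 100-base exon windows found once on the assembled chromosomes was at least 95% in 45 of the 61 members, with a median of 98.7%. It was under 75% in 5, at 66.9% in Vmn2r113, 67.9% in Olfr1459, 69.7% in Vmn1r173, 73.5% in Vmn2r6 and 73.8% in Vmn2r7. How the authors' counting treated reads that match several places is not given in the sources used here, so the values of these 5 are the least certain. Exons of 12 members overlapped an exon of another annotated gene, over 14.0% of the exonic length in Vmn1r88 and less in the others. Whether strand was used in counting is not given either, so reads of overlapping genes on opposite strands may not be separable. Vmn1r88 and the gene it overlaps, Gm4879, lie on the same strand, as do Vmn1r80 and Vmn1r-ps64. Strand cannot separate the reads of such overlaps.

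Genes through which these receptors signal were examined as a group. Of 22 genes of olfactory and vomeronasal signalling, transport and neuron identity, 2 were listed, beside 16.3% of all protein-coding genes outside the receptor families in either table. This count is near that background. In the table of lower genes stood Gnai2, which encodes a G protein subunit also used widely outside sensory neurons, with an average log2 CPM of 8.38 and 87.9 CPM per kb. In the table of higher genes stood Ncam2, which encodes a cell adhesion molecule, with 5.89 and 5.25 CPM per kb. The other 20 were in neither table, among them Trpc2, the cation channel of vomeronasal neurons, Gnao1, Gnal, Adcy3, Cnga2 and Omp. Of 66 protein-coding genes of other chemosensory families (trace amine, formyl peptide and taste receptors and the H2-M genes of vomeronasal neurons), 0 were listed, beside 2.17% of the protein-coding genes outside the receptor families in the table of higher genes. None of these 66 genes had exons over 8 kb, and their median exonic length was 1.03 kb.

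All 12 ILC2 markers examined were in the table of lower genes, which holds 14.1% of the protein-coding genes outside the receptor families. Their average log2 CPM ran from 6.27 for Il13 to 9.98 for Il1rl1, the receptor for interleukin 33. Il13, Il5 and Klrg1 were thus below Vmn2r76 on that scale. That scale pools both populations, so this order need not hold in either of them. Per kb of exon the markers ranged from 29.8 CPM for Rora to 177 CPM for Areg, above every receptor gene. For markers with short exons, such as Areg at 1.22 kb, the level limit alone would give that order. It would not for Rora at 13.1 kb or Ptprc at 18.3 kb. Of the markers of T and NK cells (4 genes), B cells (3 genes), macrophages (5 genes), lung epithelium (4 genes) and endothelium (2 genes), 0 were in either table. Of all protein-coding genes outside the receptor families, 16.3% were in either table. The count of 0 does not show that these markers were absent from the cells.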

How the data were processed

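RNA was measured in 4 libraries of tdTomato− and 4 of tdTomato+ ILC2s, prepared with a SMARTer stranded kit. FASTP was used by the authors for read quality, STAR for alignment to GRCm39 and featureCounts for gene counts on Ensembl 104, and the authors' comparison of tdTomato+ with tdTomato− ILC2s was made in edgeR. Versions are not given in the sources used here, and neither are the libraries in that fit. The 2 deposited tables hold, besides the authors' average log2 CPM, their log2 fold change, likelihood ratio, p-value and FDR. These columns of the authors' comparison were not used, so no level of either population is given. Columns of single samples left unused numbered 0. The authors' average log2 CPM was the only value analysed, and CPM was taken as 2 to that power. With no value per library, no test was run and no confidence interval or detection limit was given.

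The members and gene lists were chosen with earlier results of these data known. Named genes were all olfactory and Vmn1r members, the 10 highest and 3 lowest Vmn2r genes, Vmn2r6, Vmn2r7, Vmn2r74, pairs with at least 90% protein identity and pseudogenes. Others are named by cluster, and extremes of length, CPM per kb, identity or uniqueness were named after their values were seen. Positions, exons and coding sequences came from GENCODE M21 on GRCm38, matched by Ensembl identifier for all 61 members. That build and release differ from those of the authors. The genome sequence was RefSeq's copy of GRCm38. Proteins were translated from the coding sequences and aligned globally with Biopython 1.88, and identity was taken over aligned columns. Exon windows of 100 bases were searched on both strands of the assembled chromosomes. Clustering, alignment and window search were checked on simulated data. Alternatives were another length, gap, gene type, level limit and window. Some results are not reported here.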

Additional observations from a re-analysis of the deposited data

How the results depend on the processing

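With an average log2 CPM of at least 6 required, 5 of the 61 members were left. Without genes typed as pseudogenes 59 were left. Divided by coding length alone (chosen after seeing the data), the members' median became 24.3 CPM per kb in place of 3.89. The median was 4.02 with the longest transcript, 4.23 with only the exon windows that occur once, and 3.89 without Vmn2r76. With windows of 50 in place of 100 bases, both lengths chosen after seeing the data, the median unique share of the exons was 89.1% in place of 98.7%. The share of long family genes listed was 31.1% with a limit of 6 kb and 76.6% with 10 kb, in place of 61.7% with 8 kb, and all 3 limits were chosen after seeing the data. The number of clusters was 11 with gaps of 500 kb, 1 Mb and 2 Mb, but they held 39, 45 and 46 members. At 500 kb the cluster from Vmn2r124 to Vmn2r110 split between Vmn2r95 and Vmn2r99, Vmn2r79, Vmn2r63, Vmn1r88 and Vmn1r-ps140 left theirs, and Vmn1r18 and Vmn1r28 no longer formed a pair. At 2 Mb Vmn1r68 joined Vmn1r77 to Vmn1r88. The listed share of the family was 3.09% with all annotated genes and 4.09% with protein-coding genes only. Median protein identity over all pairs within a class was 45.9% over aligned columns and 45.0% over the shorter protein. The median level was 5.46 with all members, with protein-coding members only and without Vmn2r76. No paired analysis was possible because the tables hold no value of a single library and no result comes from a test. The unknown depth limits every value to a description.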

Other observations

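The spans of the 11 clusters also held 39 protein-coding genes outside the receptor families. Of these 0 were in the table of higher genes and 4 in the table of lower genes. Over all such genes the shares were 2.17% and 14.1%, so the count of 0 is near the background. The 4 lower genes lay within the span from Vmn1r77 to Vmn1r88 on chromosome 7. Among them were Trim28, a transcriptional corepressor, with an average log2 CPM of 6.04, Ube2m, a NEDD8-conjugating enzyme, with 5.39, and Chmp2a, a subunit of the membrane-remodelling ESCRT machinery, with 5.08. Per kb of exon these genes had 15.9, 17.8 and 29.2 CPM. Their exons cover 4158, 2357 and 1162 bases. At these lengths the limit of 32.02 CPM alone puts any listed gene above the 6.04 CPM per kb of the highest receptor gene.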
